A study of Mus musculus with 4 samples.

Results

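The cytosolic ribosomal proteins are the structural proteins of the large (60S) and small (40S) subunits of the ribosome that translates nuclear-encoded messenger RNA. Members were taken by gene symbol: Rpl or Rps followed by digits and at most 1 of the letters a, l, x or y, together with Rplp0, Rplp1, Rplp2 and Rpsa, leaving out pseudogenes and the S6 kinases. Only probe sets that the platform annotation assigns to a single gene were used. This gave 46 genes of the 18193 measured, 24 of the large and 22 of the small subunit, with 100 probe sets between them. Each gene was read from its brightest probe set. A further 28 symbols of the same name pattern, Rplp1 and Rpl5 among them, appear only in probe sets that list several genes, usually with their pseudogenes, and are not named with values.

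RNA came from epithelial cells of chemically induced squamous cell carcinomas of mouse skin, gated on the surface protein Epcam with leukocytes (CD45), endothelium (CD31) and mesenchyme (CD140a) removed, and was hybridised to whole-genome mouse Affymetrix arrays. The cells of 2 arrays were positive for a Sox2-GFP reporter and those of 2 arrays were negative, and the series text names 2 carcinomas of 2 mice as the source of both. Both groups are malignant tumours and carry the reporter; the sources used here do not give the carcinogen, the reporter allele, the strain or the age. No normal skin was analysed here. Values are log2 array intensities as deposited, and differences are positive minus negative on that scale. With 2 arrays in each group, a permutation test of a single value cannot give a two-sided p below 0.333, so the number of arrays limits every comparison.

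Each ribosome carries 1 copy of nearly every ribosomal protein, so cells make these proteins in matched amounts, and free ones are degraded. Their messenger RNAs are abundant in nearly every cell and mostly start with a C followed by a run of pyrimidines, the 5′ terminal oligopyrimidine tract, through which mTORC1 and Larp1 control their translation largely without a matching change in RNA level. Several members have a second role: Rpl11 binds Mdm2 and so restrains p53 degradation, Rps6 is the substrate of the S6 kinases, and Rpsa also serves as a laminin receptor. Ribosomal protein transcripts are widely used as reference genes in skin and tumour RNA work.

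The sequences at the gene starts are shown because the pyrimidine run is a feature that the choice of members did not use. RefSeq promoters (GRCm38.p6) were matched for 40 members, the first listed start of each was used, and the window held the 14 bases before the annotated start and the first 16 bases from it. Capitals mark the longest unbroken run of C and T on the gene's strand.
Rplp2 (chr7:141447637-141447666, plus strand): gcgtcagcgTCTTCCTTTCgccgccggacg
Rps27 (chr3:90213633-90213662, minus strand): tttccgctttcgCTCCTTTCCggcggtgac
Rps27l (chr9:66946072-66946101, plus strand): caCTCCTCCCCgccgcctctatcccggaag
Rpl14 (chr9:120571503-120571532, plus strand): ggcgggCCCTCTCTCTTCTCgctgagcgcc
Rps9 (chr7:3704027-3704056, plus strand): ccgccttgTCTCTCTTTgtctcgggcctga
Rpl13a (chr7:45128730-45128759, minus strand): aaaccctgcgacaagaCCTCCTCCTTTCCC
Rpl39 (chrX:37085207-37085236, minus strand): ctaagctccgcctctagcgaCTTCTTCTaa
Rpl39l (chr16:10170214-10170243, plus strand): tcccaggCCTTTCCggatttccggtggtcg
Rpl3l (chr17:24727812-24727841, plus strand): agtgttctagctctgtcatttgaCCTCTgg
The first 3 of these pair a stalk protein with Rps27 and its related copy, and the last 3 set Rpl39 beside its copy Rpl39l and beside Rpl3l, the copy of Rpl3, which both read dim on these arrays. The windows shown were picked by name from the 40 and do not stand for all of them. Members with short runs, such as Rps3 with 2 bases, are not shown. In Rps27l and Rpl39l the run lies wholly before the annotated start. In Rplp2 and Rps27 the run spans the annotated start, whereas in Rpl3l, which is made in muscle, it is 5 bases long and lies inside the transcript. The runs of Rpl13a and Rpl39 lie inside the transcript too, so this place is not particular to Rpl3l. That of Rpl39 is 8 bases long. That of Rpl13a is at least 14, because it reaches the end of the window. A run of at least 7 pyrimidines was found in 20 of 40 member windows and in 18.2% of the 27025 windows of all genes, and a run of at least 9 in 16 of 40 against 7.5%. The annotated first base was a C that opened a run of at least 5 in 8 members (20.0%) against 2.5%. The letters TATAAA, searched on both strands of the 250 bases before the start, were found in 2 members (5.0%) against 13.0%. These are matches of letters around annotated starts, and no array value was used for them.

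The sorted cells carried epithelial transcripts in all arrays. Epcam read 11.24 and 11.80 in the negative and 10.75 and 11.79 in the positive arrays, and the basal keratin gene Krt14 read 13.04 and 12.99 against 13.07 and 13.05. Sox2 itself read 3.14 and 3.43 against 3.50 and 3.27, near the dim end of the scale, so it did not check the sort. The epithelial list was measured for 11 of 11 genes and its summed linear intensity ran from 45610 to 49206 in the negative and from 42444 to 47082 in the positive arrays. Fibroblast and pericyte markers (11 of 12 measured) summed to 48621 and 24276 in the negative and to 17161 and 2135 in the positive arrays. In all 11 both positive arrays lay below both negative arrays, beside 14% of all genes. The epithelial genes themselves were uneven. Both positive arrays lay above both negative ones in 4 (36.4%) and below them in 4 (36.4%), beside 35.5% and 14% of all genes. Differences were -3.34 for the tight junction gene Cldn1 and -0.96 for Cdh1 but 1.22 for Itgb4 and 1.45 for Krt18, all with groups that did not overlap. Endothelial markers (10 of 10) summed to 1943 and 629 against 799 and 436, and leukocyte markers (14 of 16 symbols) to 1961 and 821 against 977 and 742. A log2 array scale has no zero, so none of these markers is at 0. Their part in the values below was not tested. In bulk samples, fewer cells of a type and less RNA per cell cannot be told apart.

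Ribosomal protein genes differed little between reporter-positive and reporter-negative tumour cells, and more of them were separated above the negative arrays than below. The median difference of the 46 members was 0.16, beside 0.14 over all 18193 genes, which leaves 0.02 relative to the median of all genes; 26 members lay above that median. Both positive arrays lay above both negative arrays in 25 members (54.3%, background 35.5% of all genes) and below them in 4 (8.70%, background 14% of all genes), while 17 overlapped. The genes of mean level 12 or more, where most members lie, gave shares of 41.9% above and 20.9% below. In that range 21 of 34 members (61.8%) were separated above and 2 (5.88%) below, with a median of 0.15, while the 200 other genes gave 38.5% and 23.5% with a median of 0.04. The contrast between members and other genes was not tested. No member passed the limma test at an adjusted p of 0.05 (background 0% of all genes), with adjusted p from 0.248 to 0.975. At an unadjusted p of 0.05 limma gave 2 members higher and 1 lower, beside 9.75% and 5.22% of all genes. When the replicate number was added as a block, the lowest adjusted p of a member was 0.0987 and none passed, beside 13 higher (0.0715%) and 158 lower (0.868%) over all genes.

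The size of the shift depended on positive replicate 1. That array gave the highest of the 4 values in 30 of the 46 members, beside 7427 of all 18193 genes. In both it did so more often than any other array. Positive replicate 1 lay above positive replicate 2 in 39 members, a count not taken over all genes. Between the arrays numbered 1 the members' median difference was 0.21, and between those numbered 2 it was 0.08, beside 0.19 and 0.06 over all genes. Without positive replicate 1 the members' median was 0.06, beside 0.08 over all genes. The members took 4.67% and 4.68% of the summed linear intensity of all genes in the negative arrays and 5.00% and 4.55% in the positive arrays, so the positive arrays lay on either side of the negative ones. The direction of any single small difference also depends on how the arrays are scaled: equalising the bacterial spike-in transcripts moved the median of all genes from 0.14 to 0.93 and that of the members to 0.95, whereas quantile normalization gave 0.10 for the members and 0.14 for all genes.

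**Figure D1:**
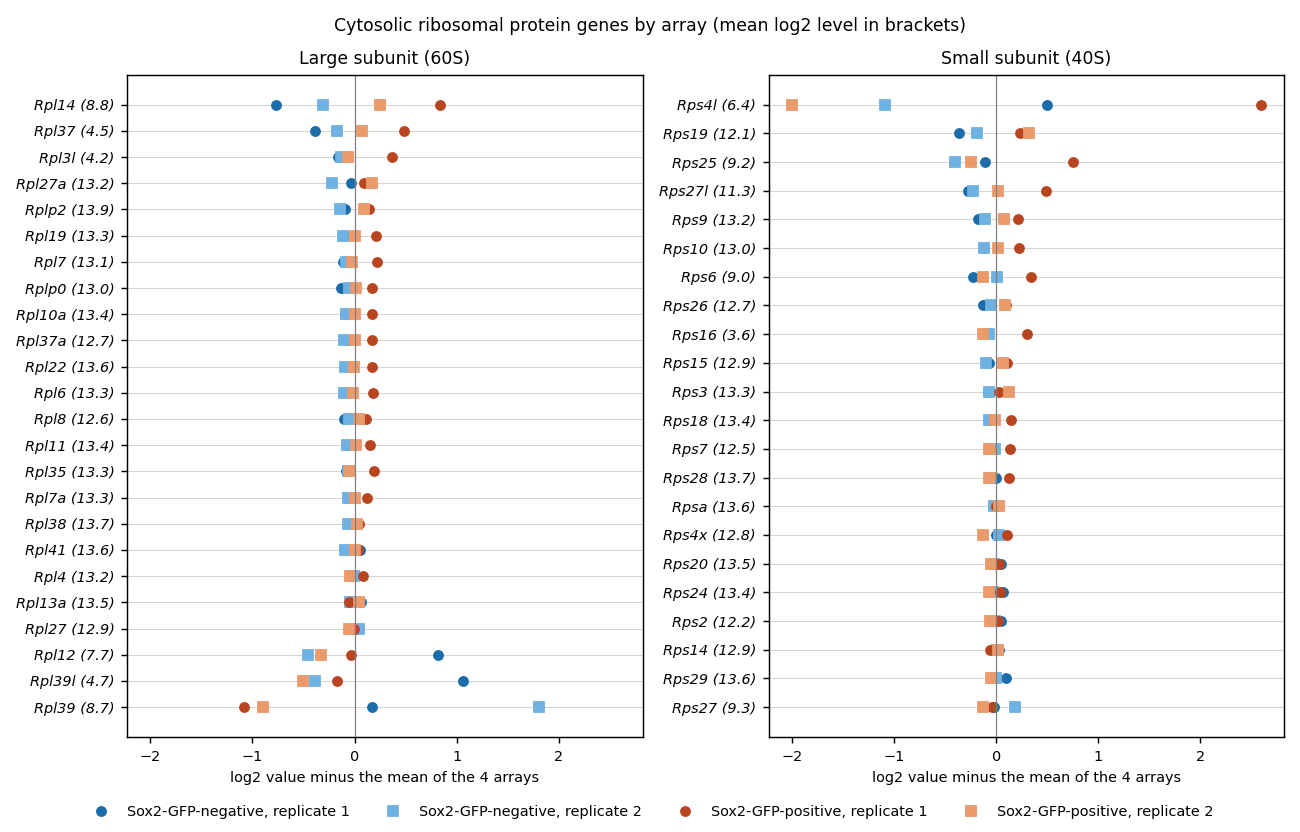
Each row is a gene, with its mean log2 level in brackets, and each point is 1 array, placed at its log2 value minus the mean of the 4 arrays (horizontal axis, the same in both panels). Most rows are narrow, with positive replicate 1 (dark red circles) rightmost in 30 of 46, beside 7427 of all 18193 genes. The wide rows belong to the dimmer genes Rpl39, Rps4l, Rpl14, Rpl12 and Rpl39l.

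Most members were bright and even across the arrays. Of the 46, 34 had a mean log2 level of 12 or more, all above the 98th percentile of genes, and single values there ran from 11.77 to 14.07 on a scale whose top was 14.36. In these 34 the group difference ran from -0.10 to 0.55, and it was smaller than 0.3 in 33. The negative arrays differed from each other by a median of 0.04 in these genes and the positive arrays by 0.11. Other genes of that level were also even: the range over the 4 arrays had a median of 0.32 in 200 of them and of 0.22 in the 34 members, and no test of that contrast was made. The 12 dimmer members had a median range of 1.01. Brightness on an array depends on the probes as well as on the transcript, so a gene's place on this scale describes its probe set and not the amount of its transcript.

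Among large subunit genes, 17 of 24 (70.8%) had both positive arrays above both negative arrays and 2 (8.33%) had them below, with a median of 0.16. Among small subunit genes these were 8 of 22 (36.4%) and 2 (9.09%), with a median of 0.14, so that only the large subunit share above lay well over the 35.5% of all genes, and both shares below lay under the 14% of all genes. The difference between subunits was not tested. The stalk of the large subunit, which recruits the elongation factors, was read from 2 members. Rplp2, the acidic stalk protein, read 13.83 and 13.78 in the negative and 14.07 and 14.01 in the positive arrays, a difference of 0.23 ± 0.18 (SE, n = 2 per group, limma adjusted p = 0.577). Its groups did not overlap and each group was tight. Rplp0, the scaffold of the stalk and a common reference gene, read 12.89 and 12.97 against 13.19 and 13.04, so that both positive arrays lay above both negative ones, the nearest by 0.07. Rpl12, at the base of the stalk, read 8.51 and 7.24 against 7.66 and 7.36, so that negative replicate 1 alone stood high.

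Rpl14, a large subunit protein, had the largest difference above 0. It read 7.99 and 8.45 in the negative arrays and 9.59 and 9.01 in the positive arrays, 2.11-fold higher (log2 difference 1.08 ± 0.30 SE, n = 2 per group, limma adjusted p = 0.248). Both positive arrays lay above both negative ones, by a gap of 0.55. Rpl39, a short protein that lines the tunnel through which the new chain leaves the ribosome, had the largest difference below 0. It read 8.85 and 10.48 in the negative and 7.59 and 7.77 in the positive arrays, 3.95-fold lower (log2 difference -1.98 ± 0.55 SE, limma adjusted p = 0.248, and 0.0987 with the replicate block). The positive arrays were close together, while the negative arrays differed by more than 1 log2 unit. Each of these genes has a single probe set with 1 gene symbol here.

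Rpl37, represented only by a dim probe set, read 4.07 and 4.28 against 4.94 and 4.52. Rpl27 read 12.94 and 12.97 against 12.91 and 12.86, below the negative arrays by a gap of 0.02. Its other probe sets, of levels 12.73 and 12.70, gave 0.12 separated above and -0.05 separated below. Rpl11, the Mdm2-binding protein, read 13.33 and 13.32 against 13.55 and 13.41, a difference of 0.16 with adjusted p = 0.716 in limma. Rpl38, which in the mouse embryo is needed for translation of Hox messages, read 13.69 and 13.63 against 13.74 and 13.72, with a gap of 0.03 between the groups. Rpl22, an RNA-binding member with a role in lymphocyte development, read 13.50 and 13.48 against 13.75 and 13.57. In each of these, apart from Rpl37, the groups lay within 0.3 log2 units. The other large subunit members of level 12 or more, leaving out Rpl13a and Rpl35, were Rpl4, Rpl6, Rpl7, Rpl7a, Rpl8, Rpl10a, Rpl19, Rpl27a, Rpl37a and Rpl41, with differences from 0.03 for Rpl4 to 0.26 for Rpl27a. Of these, Rpl4 and Rpl41 had overlapping groups and the others were separated above, each on its brightest probe set. The other probe sets of Rpl41, of levels 12.78, 9.05 and 7.60, gave -0.24, -0.10 and -0.15, all separated below. The second probe set of Rpl37a, of level 12.66, gave 0.04 with overlapping groups. That of Rpl7, of level 12.82, gave 0.26 and was separated above.

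In the small subunit the widest separation was in Rps19, whose human counterpart is mutated in Diamond-Blackfan anaemia. It read 11.77 and 11.94 in the negative and 12.37 and 12.45 in the positive arrays, 1.47-fold higher (log2 difference 0.55 ± 0.19 SE, n = 2 per group, limma adjusted p = 0.301). The difference was 0.59 between the arrays numbered 1 and 0.51 between those numbered 2, so it did not rest on positive replicate 1. Rps9 read 12.98 and 13.05 against 13.37 and 13.23. Rps10 read 12.83 and 12.83 against 13.18 and 12.97. Rps26, which contacts the message near the exit site, read 12.61 and 12.68 against 12.83 and 12.82. These 3 were separated above with differences of 0.28, 0.24 and 0.18. Rps29 was separated below on its brightest probe set, at 13.73 and 13.62 against 13.58 and 13.57. Its other probe sets, of levels 13.40 and 13.35, gave 0.05 with overlapping groups and 0.04 separated above. Of the members not described elsewhere, Rps15 was separated above with a difference of 0.17, and Rps2, Rps7 and Rps20 overlapped, with differences of -0.04, 0.07 and -0.03. Rps16 was represented only by a probe set at the dim end of the scale, with values from 3.50 to 3.93.

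Rpsa, the laminin receptor, had the narrowest range of all members: it read 13.57 and 13.54 in the negative and 13.56 and 13.59 in the positive arrays, a range of 0.05. Rps3, which also acts in DNA repair, read 13.18 and 13.18 against 13.29 and 13.38. Rps6 read 8.77 and 9.00 against 9.34 and 8.87, with overlapping groups. Rps14, on the platform of the small subunit, read 12.95 and 12.93 against 12.85 and 12.94. A second Rps14 probe set, of level 12.86, read 12.76 and 12.76 against 13.03 and 12.88, separated above. Rps28 read 13.67 and 13.62 against 13.80 and 13.60. Rps25, which in yeast and human cells is needed for initiation at some viral RNAs, read 9.10 and 8.80 against 9.96 and 8.96, where only positive replicate 1 stood high.

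Some members are related copies of another member and are given beside it. Rps27l, a close relative of Rps27 that p53 induces, read 10.98 and 11.03 in the negative and 11.75 and 11.28 in the positive arrays, 1.42-fold higher (log2 difference 0.51 ± 0.23 SE, limma adjusted p = 0.395). Its 3 probe sets gave differences of 0.44 to 0.61. Rps27 read 9.26 and 9.46 against 9.24 and 9.15, a difference of -0.16 ± 0.20 (SE, adjusted p = 0.714), with positive arrays just below the negative ones. The copies lay on opposite sides of the negative arrays, and that contrast was not tested.

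Rps4x, the X-linked protein, read 12.79 and 12.82 against 12.90 and 12.67, with a difference of -0.02. Rps4l, its related copy, varied more than any other member: 6.94 and 5.35 in the negative and 9.03 and 4.44 in the positive arrays, a range of 4.59 log2 units. Both arrays numbered 1 lay above both arrays numbered 2, and the groups overlapped fully (difference 0.59 ± 1.56 SE, limma adjusted p = 0.875). Rpl39l, a copy of Rpl39 best known from the testis, read 5.79 and 4.34 against 4.56 and 4.22, so that negative replicate 1 stood apart. Rpl3l, the muscle copy, stayed dim at 4.08 and 4.11 against 4.61 and 4.18. Rps4l, Rps25 and Rpl12 were picked for description after their values were seen.

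**Figure D2:**
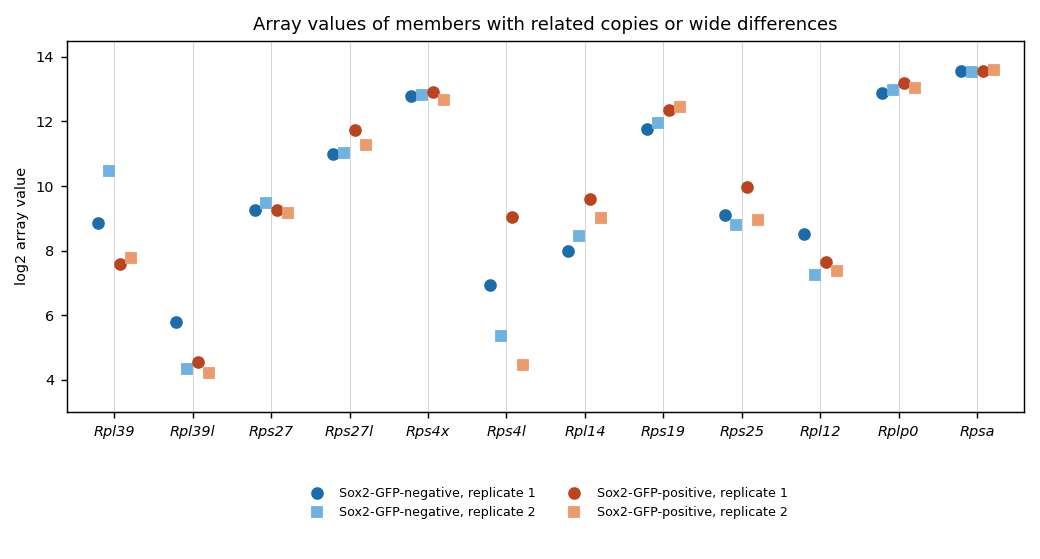
Points are log2 array values (vertical axis) of 12 members in the 4 arrays. Rpl39 is lower and Rpl14 and Rps19 higher in both positive arrays, Rps4l spans 4.59 log2 units with both replicate 1 arrays on top, and Rps4x, Rplp0 and Rpsa hardly vary.

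A gene's probe sets often differed. Of the 23 members with more than 1 single-gene probe set, 16 had probe sets with differences of opposite sign, and in 4 of them probe sets were separated in opposite directions. These 4 were Rps24, Rps18, Rpl27 and Rps29. Rps24 ranged from -0.79 in a probe set of mean level 6.55 to 0.63 in one of level 5.05, with -0.03 in the brightest. Rps18, a common reference gene, gave 0.13 in its brightest probe set and -0.60 in one of level 5.43. Rpl35 gave 0.15 and, in its dimmest probe set, -0.51, while Rps6 gave 0.21 and -0.67 and Rps9 gave 0.28 and -0.20. Rps3 gave 0.15 in its brightest probe set and 1.08 in a second, which read 8.83 and 8.83 against 9.98 and 9.85 with tight groups. For Rpl13a, a frequent reference gene, the brightest of 4 probe sets gave -0.02 and the others 0.23, 0.33 and 0.46, all 3 separated above. A single probe set therefore did not settle these genes.

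Among all 100 probe sets, 46 were separated above and 15 below, beside 32.3% and 16.5% of all 34945 single-gene probe sets. The 62 of level 12 or more had differences from -0.24 to 0.55, the 15 of level 8 to under 12 from -1.98 to 1.08, and the 23 under 8 from -0.79 to 0.63. Within the 18 genes with several probe sets of level 10 or more, the dimmest of these had the higher difference in 8 and the lower in 10. Of the probe sets that represent the members, 11 have names ending in _x_at, 2 in _s_at and 19 in _a_at, suffixes that Affymetrix gives to sets whose probes may match several transcripts or genes, and ribosomal protein genes have many processed copies in the genome. Near-identical copies cannot be told apart in those sets whose probes match several genes, and how many of these sets do so was not examined.

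**Figure D3:**
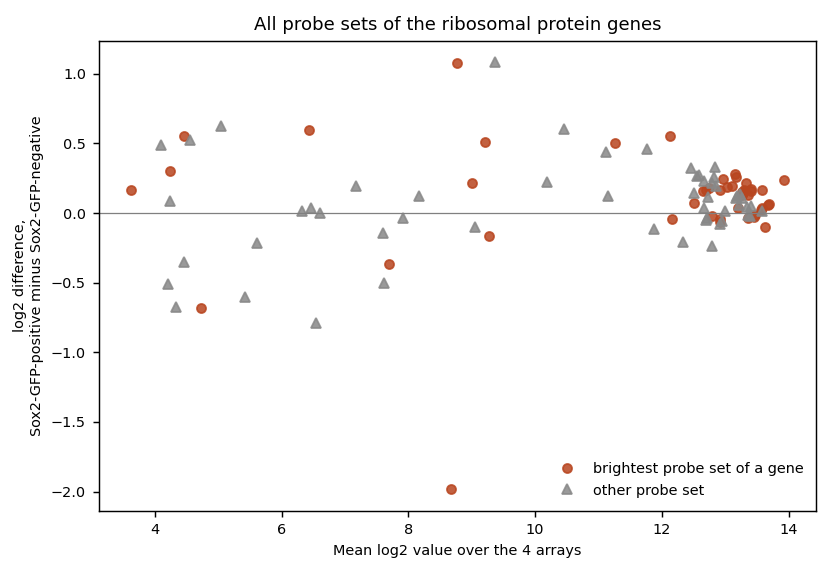
Each point is 1 of the 100 single-gene probe sets of the members, with its mean log2 value over the 4 arrays (horizontal axis) and its log2 difference between groups (vertical axis). Sets of level 12 or more lie between -0.24 and 0.55, and the wide differences, down to -1.98 for Rpl39, belong to dimmer sets.

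Ribosomes of mitochondria, built from a separate set of nuclear genes, lay further above the negative cells. Their 76 measured genes had a median difference of 0.57, with 61 (80.3%) separated above and 0 below. The shares were 54.3% and 8.70% in the cytosolic members and 35.5% and 14% in all genes. In limma, 30 of them (39.5%) had an unadjusted p under 0.05, all higher, beside 9.75% of all genes, and 0 passed after adjustment, with a lowest adjusted p of 0.184. Their median was 0.72 between the arrays numbered 1 and 0.30 between those numbered 2. They took 0.585% and 0.637% of the summed intensity in the negative and 0.917% and 0.721% in the positive arrays, groups that did not overlap, unlike the cytosolic members. The difference between these gene sets was not tested.

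**Figure D4:**
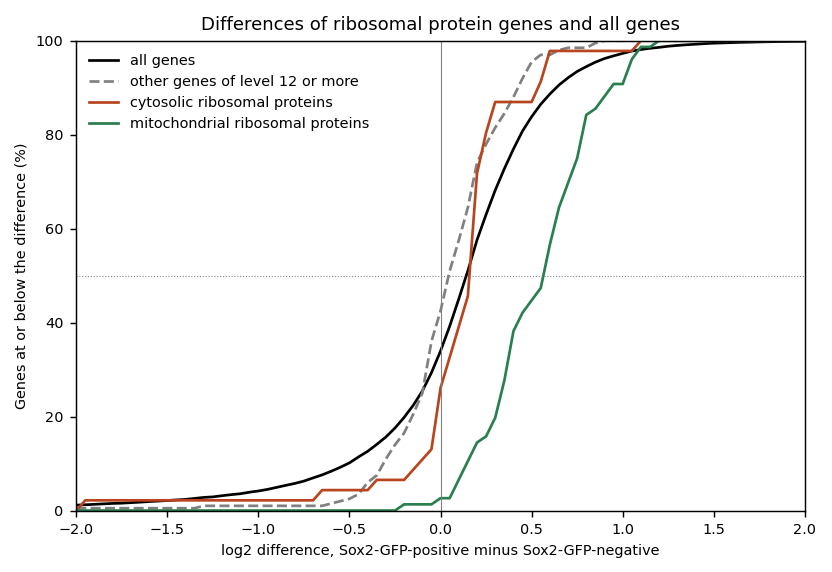
Lines give the percentage of genes (vertical axis) whose log2 difference, positive minus negative arrays, is at or below the value on the horizontal axis. The cytosolic ribosomal proteins cross 50% at 0.16, close to all genes at 0.14 and steeper than them, whereas the mitochondrial ribosomal proteins cross at 0.57.

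Genes that build and use ribosomes gave a mixed picture beside the members. Over all genes, 35.5% were separated above and 14% below. Ribosome biogenesis genes (71 of 72 measured) had a median difference of 0.27, with 40 (56.3%) separated above and 3 (4.23%) below. Nip7, a factor of 60S maturation, read 8.04 and 8.05 against 8.88 and 8.76. Mphosph10, a component of the small subunit processome, read 8.44 and 8.51 against 9.12 and 9.06. Rrn3, an initiation factor of RNA polymerase I, and Ddx18, a nucleolar helicase, had differences of 0.71 and 0.61 with groups that did not overlap. Npm1, an abundant nucleolar chaperone, read 13.21 and 13.12 against 13.24 and 13.18. Translation initiation factors (31 of 36 measured) had a median of 0.17, with 16 (51.6%) separated above and 2 (6.45%) below. Eif3b, Eif3m, Eif3k and Eif3d, subunits of the factor that brings the 40S subunit to messages, had differences of 0.76, 0.63, 0.53 and 0.58. Elongation and termination factors (18 of 19) had a median of 0.07, with 7 (38.9%) above and 1 (5.56%) below. Their share above lay close to that of all genes. Eef1a1 and Eef2, whose messages carry the same pyrimidine tract as the members, had differences of -0.05 and 0.03. Eef1e1, a scaffold protein of the multi-tRNA synthetase complex, read 7.89 and 7.90 against 9.13 and 8.75, a difference of 1.05. Pabpc4, a poly(A)-binding protein, had 0.60, Abce1, which splits ribosomes after termination, 0.55, and Eef1a2, the muscle and neuron form of the factor, 0.54 on a dim probe set.

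The regulators and relatives were as varied. Of the list on mTORC1 and the control of pyrimidine-tract messages (21 of 24 measured, median 0.17), 5 (23.8%) were separated above and 5 (23.8%) below. The shares over all genes were 35.5% and 14%. Deptor, an inhibitor of mTOR, read 8.50 and 8.80 against 7.38 and 7.92, Mtor read 9.13 and 8.69 against 9.34 and 9.64, and Larp1 read 10.30 and 10.63 against 11.05 and 10.78. Tsc1, which restrains mTORC1, had a difference of -0.48, and Rheb, which activates it, 0.41, both without overlap of the groups. Myc, an activator of ribosomal genes, read 11.58 and 11.34 against 11.25 and 11.22. Ribosome quality control and stress genes (18 of 20 symbols) had a median of -0.01, with 3 (16.7%) above and 4 (22.2%) below. Rrp8, a nucleolar methyltransferase, read 7.05 and 7.29 against 7.87 and 8.46. Ltn1, the ubiquitin ligase of stalled 60S subunits, had a difference of 0.43. Ascc3, a helicase that splits collided ribosomes, had -0.58, and Tcf25, a partner of Ltn1, -0.27. Of 7 symbols listed for ribosomal protein genes outside the naming rule, 3 were measured. All were separated above, beside 35.5% of all genes. Rpl7l1 had a difference of 0.81, and Rpl22l1, the copy of Rpl22, had 0.50. Fau, which encodes a small subunit protein fused to a ubiquitin-like one, had 0.21. No gene of these lists passed limma at an adjusted p of 0.05 with or without the replicate block, the lowest being 0.208 without it and 0.143 with it. At an unadjusted p of 0.05 limma gave 20 of their 162 measured genes (12.3%) higher and 1 (0.62%) lower, beside 9.75% and 5.22% of all genes. Npm1, Eef1a1, Eef2, Larp1 and Myc lie outside the rule for naming genes and were chosen after their values were seen.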

How the data were processed

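The authors deposited 1 table of log2 values for 45101 probe sets and 4 arrays; the log2 scale was read from the values (2.73 to 14.36). Per the submitters' processing notes R 2.14.0 was used; the sources used here do not state the background correction, normalization or probe set summary. Per the labels' protocols RNA was amplified and biotin-labelled by in vitro transcription with bacterial spike-in transcripts. The arrays give no read depth. Groups and replicate numbers came from the sample titles. The 64 control probe sets were left out; 34945 probe sets have 1 gene symbol, 932 several and 9160 none. Each gene was its brightest single-symbol probe set.

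The test was limma 3.58.1 in R 4.3.3 (lmFit, eBayes, group only, prior 2.92 degrees of freedom), with Benjamini-Hochberg adjustment over all 18193 genes and a threshold of 0.05. The code was checked on simulated data with large added differences and equal noise in every gene. That check does not bear on the small differences of the members. Nothing states that replicates are independent beyond the series text. Both groups share replicate numbers; whether a number marks a tumour is not stated, and replicate differences of the groups correlated across genes with r = 0.16, so the number is a block only in an alternative. Separated means that both positive arrays lie above, or below, both negative arrays. The members and lists were chosen with earlier results of these data known. Named were members with the widest gaps (8 per direction, fewer if fewer exist), members and related copies with known roles, the 3 dimmest and 3 brightest, those whose probe sets disagree most, and, from the translation and ribosome lists, the 4 genes of lowest p where that many were measured; 5 other genes of these lists were added after their values were seen, and marker lists are given mainly as sums. Gene symbols of all 46 members matched RefSeq. Lists: epithelial, fibroblast, endothelial and leukocyte markers, ribosome biogenesis, initiation, elongation, quality control, mTORC1 and related ribosomal proteins. Some lists hold both an older and a newer symbol of the same gene, such as Gnb2l1 and Rack1, so the listed totals count symbols. Alternatives were scaling, filters, probe set choice, prior, threshold and leaving out each array.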

Additional observations from a re-analysis of the deposited data

How the results depend on the processing

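The median difference of the members stayed between 0.06 and 0.24 in every alternative except spike-in scaling. Their median relative to that of the genes tested in each alternative stayed between -0.03 and 0.09 in all. The 0.09 came from the fit of genes of level 12 or more, where the reference was 234 genes. Relative to all 18193 genes, the 34 members of that level lay at 0.01. No member passed in any alternative except spike-in scaling, where each difference is raised by the same amount. That scaling called 12559 of the 18193 genes higher and 158 lower, so most genes of the array were called, members and others alike. Among the 46 members it called 42, with a median of 0.95, 42 separated above and 1 below. The replicate block called 13 genes higher and 158 lower, and combined with quantile normalization 17 and 166; a trended prior called 1 and 18. The members separated below were 8 after quantile normalization, 1 after equalising medians and 2 of the 34 in the fit of genes of level 12 or more; with plain _at probe sets (25 members) 9 were separated above. Leaving out each array in turn gave medians from 0.055 to 0.20, with 26 to 33 members above and 4 to 14 below; 14 were below without positive replicate 1 and 12 without negative replicate 2. Fewer arrays make separation easier. The share of all genes separated was not taken in these alternatives, apart from the genes of level 12 or more (20.9% below). The other counts of separated members therefore have no background here. Differences of separated members turned sign for Rpl27 (0.017 with equal medians, 0.73 with spike-in scaling, 0.0011 with the mean of probe sets, 0.12 with plain _at sets), Rps27 (0.63) and Rps29 (0.69) with spike-in scaling, Rpl38 (-0.0032 after quantile normalization, with or without the block), Rps18 (-0.20 with the mean of probe sets, -0.50 with plain _at sets), and, with plain _at sets, Rpl35 (-0.51) and Rps10 (-0.21). The cause was not tested, apart from spike-in scaling, which adds a constant. The level 12 fit and the combined block and quantile fit were chosen after seeing the data. The planned addition of genes outside the naming rule added Fau only. Signal close to the top of the scale and 2 arrays per group limit what can be seen.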

Other observations

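Probe sets that list several genes, at least 1 of them a cytosolic ribosomal protein name, were not used above. There were 110, of which 78 had a mean level of 12 or more. Their median difference was 0.12, from -0.87 to 1.06, with 64 of the 110 separated above the negative arrays and 11 below. Of all single-gene probe sets, 32.3% were separated above and 16.5% below. Since each may read pseudogene copies too, no gene is named from them.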
